A study of Mus musculus with 12 samples.

Results

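The AIM2-like receptors are a family of interferon-inducible proteins encoded by neighbouring genes of the Ifi200 locus on mouse chromosome 1. The genes described here are the 10 members Aim2, Mndal, Ifi202b, Ifi203, Ifi204, Ifi205, Ifi207, Ifi209, Ifi211 and Ifi213, chosen by name from the 17544 genes listed for unstimulated cells and the 17874 genes listed after lipopolysaccharide (LPS). All 10 were listed in both tables and passed the filter on low counts in every comparison. RNA-seq was carried out on 12 libraries of J774A.1 cells, a macrophage line derived from BALB/c mice, with 3 libraries in each of 4 groups. WT cells had received a Cas9-GFP vector with no guide RNA, and ACAT1 KO cells the same vector with a guide against the fourth exon of Acat1, a gene of mitochondrial fatty acid and ketone metabolism. Cells of both genotypes were therefore transfected, sorted for GFP and expanded as clonal populations, and each genotype was represented by 3 such lines, either without treatment or with LPS at 100 ng/mL for 2 hr. The comparison of genotypes asks how loss of ACAT1 alters the family in resting cells and in cells that sense LPS through TLR4.

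Most proteins of the family carry a HIN domain, which binds double-stranded DNA, and many also carry a pyrin domain, through which they recruit other proteins. AIM2 binds DNA in the cytosol and assembles an inflammasome with the adaptor ASC and caspase-1, which matures IL-1β and opens gasdermin D pores. p202, the product of Ifi202b, has HIN domains but no pyrin domain and can block AIM2 signaling, and p204, the product of Ifi204, is regarded as a mouse relative of human IFI16. Type I interferon induces many of these genes through the transcription factor complex ISGF3, which binds the interferon-stimulated response element (ISRE). The number and sequence of the genes vary between mouse strains, and the counts rest on the C57BL/6J reference genome, so that strain differences and expression levels of a gene cannot be told apart in absolute levels.

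The members span 681 kb of GRCm38, at chr1:173350879-174031810, with 13 protein-coding genes inside that span. Aim2 lies first, at chr1:173350879-173466040 on the plus strand, and Ifi209 at chr1:173630917-173647928 is the other member on that strand. The other 8 members lie on the minus strand, in the order Ifi213, Ifi207, Ifi204, Mndal, Ifi211, Ifi203, Ifi202b and Ifi205. Ifi211 lies wholly within the annotated span of Mndal. The merged exons of Mndal share 37 bases with those of Ifi203 on the same strand, and no exon of a member overlaps an exon on the other strand.

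The sequences before the start sites are shown because the motif that ISGF3 and other IRF factors bind recurs in them. Of the 10 members, 9 had at least 1 promoter in the RefSeq table of GRCm38.p6, and Ifi204 had no entry. The 250 bases before each start were searched on both strands for the ISRE core, which is GAAA, any pair of bases and GAAA again, and for the NF-kB consensus. An ISRE core was found in at least 1 promoter of 6 of these 9 members (Ifi213, Ifi207, Mndal, Ifi211, Ifi203 and Ifi205). The same held for 3.46% of all 27025 genes, and for 2.98% of all 32851 promoters. NF-kB matches were found for Ifi203 and Ifi209, against 8.23% of all genes and 7.25% of all promoters. The NF-kB match of Ifi203 lay in another of its promoters than its ISRE core. No match of one motif overlapped a match of another. Aim2 and Ifi202b held neither motif in their windows. All windows are of the C57BL/6J reference, and the promoter sequences of these BALB/c-derived cells were not examined. Stretches of 100 bases on the strand of the gene are given below, with the ISRE core in capitals in the first 5 and the NF-kB match in capitals for Ifi209.
Ifi213 (chr1:173599291-173599390, minus strand): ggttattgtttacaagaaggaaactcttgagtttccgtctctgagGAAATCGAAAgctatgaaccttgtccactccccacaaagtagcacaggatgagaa
Ifi207 (chr1:173741810-173741909, minus strand): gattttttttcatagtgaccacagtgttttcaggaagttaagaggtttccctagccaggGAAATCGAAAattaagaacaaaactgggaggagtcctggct
Ifi211 (chr1:173913047-173913146, minus strand): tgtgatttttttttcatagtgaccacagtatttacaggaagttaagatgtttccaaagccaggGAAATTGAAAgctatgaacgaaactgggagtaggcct
Ifi203 (chr1:173942493-173942592, minus strand): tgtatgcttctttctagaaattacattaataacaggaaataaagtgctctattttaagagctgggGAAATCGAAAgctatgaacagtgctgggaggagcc
Ifi205 (chr1:174031835-174031934, minus strand): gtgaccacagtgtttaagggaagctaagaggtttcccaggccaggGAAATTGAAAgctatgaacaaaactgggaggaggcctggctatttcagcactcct
Ifi209 (chr1:173630759-173630858, plus strand): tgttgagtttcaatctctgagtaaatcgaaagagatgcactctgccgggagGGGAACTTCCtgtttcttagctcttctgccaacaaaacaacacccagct

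The first base of the ISRE core lay 35 bases before the start for Ifi203, 36 for Mndal, 37 for Ifi211, 41 for Ifi207 and 73 for Ifi213, and 134 bases before it for Ifi205. Another promoter of Mndal held a core on the opposite strand, 54 bases before its start. The bases that follow the core were also shared. The core followed directly by GCTATGAAC, a flank chosen after these promoters had been read, was found in 7 of the 32851 promoters. Those 7 belong to the members Ifi203, Ifi205, Ifi211, Ifi213 and Mndal and to their neighbours Ifi206 and Ifi208. The flank was picked as the longest run after the core that at least 5 members share. Its presence in the members was therefore set by that choice and is no enrichment. Over the 250 bases, Mndal and Ifi203 were 89.3% identical, Ifi207 and Ifi211 85% and Ifi213 and the neighbour Ifi208 87.9%, whereas Ifi209 was 94.4% identical to Ifi214. These matches describe letters in a window and were not tested for binding.

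Near-identical copies also matter for the counts themselves, because a read from a stretch shared by 2 genes can be assigned to either. Ifi211 was the member most affected, with 56.9% of the 100-base windows of its transcripts found in another annotated gene. It shared 628 windows with Ifi205, 331 with Ifi204 and 108 with Mndal. Ifi209 shared 16.9% of its windows, 598 of them with Ifi214, which is not a member. The share was 15% for Ifi205, 10.7% for Ifi204, 6.38% for Mndal, 3.3% for Ifi213, 2.84% for Ifi203 and 0.79% for Ifi207. Aim2 and Ifi202b shared 0 windows of this length with any other annotated transcript. Levels of Ifi211, and of Ifi205 at its low unstimulated level, are therefore less certain than those of Aim2 and Ifi202b.

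**Figure D1:**
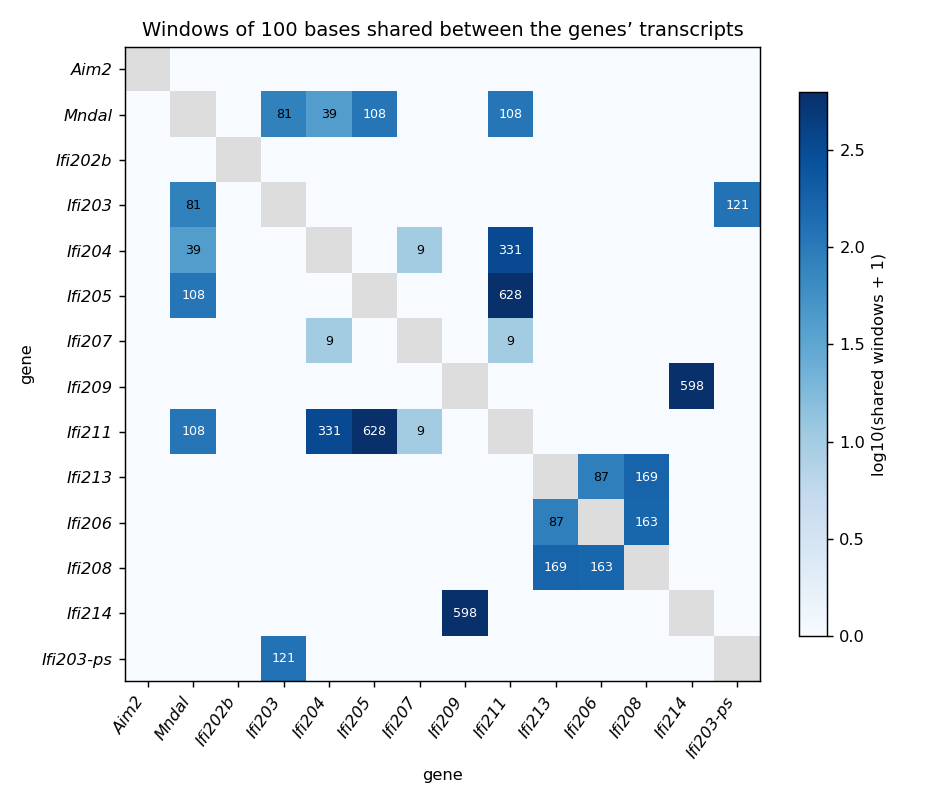
Number of 100-base windows that transcripts of each pair of Ifi200 genes have in common, for the 10 members and 4 neighbouring genes, with darker blue for more windows on a log10 scale and grey on the diagonal. Ifi211 shares 628 windows with Ifi205 and 331 with Ifi204, while Aim2 and Ifi202b have no filled cell.

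The depth was 56948593 to 167280149 counts per library. Acat1, the targeted gene, was 3.65-fold lower in unstimulated ACAT1 KO cells (edgeR adjusted p = 0.00876) and 4.23-fold lower after LPS (edgeR adjusted p = 0.000787). All 10 macrophage markers (Adgre1, Cd14, Cd68, Csf1r, Fcgr1, Itgam, Lyz2, Mertk, Ptprc and Spi1) were listed in both states, whereas 4 of 6 T cell markers (Cd3d, Cd3e, Cd3g and Cd8a) and 3 of 5 neutrophil markers (Ly6g, S100a9 and Elane) had no row in either. The T cell markers with a row, Cd4 and Lck, summed to 5.93 to 9.99 CPM of the deposited total, and the neutrophil markers S100a8, listed in both states, and Mpo, listed after LPS, to 1.88 to 5.74. Without stimulation, ACAT1 KO replicate 2 and WT replicates 1 and 2 had 0.00824% to 0.0124% of their counts on 13 noncoding genes that overlap exons on the opposite strand. The remaining 3 unstimulated libraries had no more than 0.000719%, so that results for unstimulated cells are also given within each of these classes. All LPS libraries lay at 0.000428% to 0.000541%, like the lower class. The LPS responses and the interaction were thus not balanced over these classes, whose part in them was not tested.

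Levels are given as CPM, the usual library-size scale of counts, after TMM normalization over the 12 libraries, and genes are compared with each other only as CPM per kilobase of merged exons. In unstimulated WT cells Ifi202b had the highest level per kilobase, 111.2 ± 10.5 (SD, n = 3). Ifi207 followed at 33.6 ± 2.29 and Aim2 at 31.2 ± 2.10 CPM per kilobase (SD, n = 3), and the ranges of this pair overlapped. Next came Mndal at 19.4 ± 4.25 and Ifi203 at 18.8 ± 1.98 CPM per kilobase, which overlapped each other, and then Ifi204 at 10.8 ± 2.00 and Ifi211 at 10.3 ± 2.00, which did so too. Ifi213 lay lower at 4.93 ± 0.0777, Ifi209 at 0.809 ± 0.0497 and Ifi205 at 0.0415 ± 0.0189 CPM per kilobase (SD, n = 3), and these 3 were separated from each other. Resting WT cells thus held 1 abundant member, a broad middle group and 2 members at low levels. In unstimulated ACAT1 KO cells Ifi202b was again highest at 60.0 ± 2.65 CPM per kilobase, but Aim2 at 26.5 ± 2.52 lay above Ifi207 at 17.5 ± 3.66 with no overlap (SD, n = 3).

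After LPS the order changed. In WT cells Ifi202b at 375.5 ± 53.1 and Ifi207 at 372.6 ± 20.1 CPM per kilobase overlapped at the top (SD, n = 3), and in ACAT1 KO cells Ifi207 at 340.2 ± 17.3 and Ifi202b at 320.9 ± 10.7 overlapped likewise. Ifi204, Ifi203, Aim2, Ifi211 and Mndal formed a middle group from 41.0 to 66.7 CPM per kilobase in WT cells, in which every neighbour in the order overlapped the next. Ifi213 had the lowest mean after LPS, at 3.89 ± 0.905 CPM per kilobase in WT and 3.35 ± 0.477 in ACAT1 KO cells (SD, n = 3). Ifi205, the lowest before, overlapped it in WT at 4.89 ± 1.56 and lay above it in ACAT1 KO cells at 4.73 ± 0.917 CPM per kilobase (SD, n = 3).

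**Figure D2:**
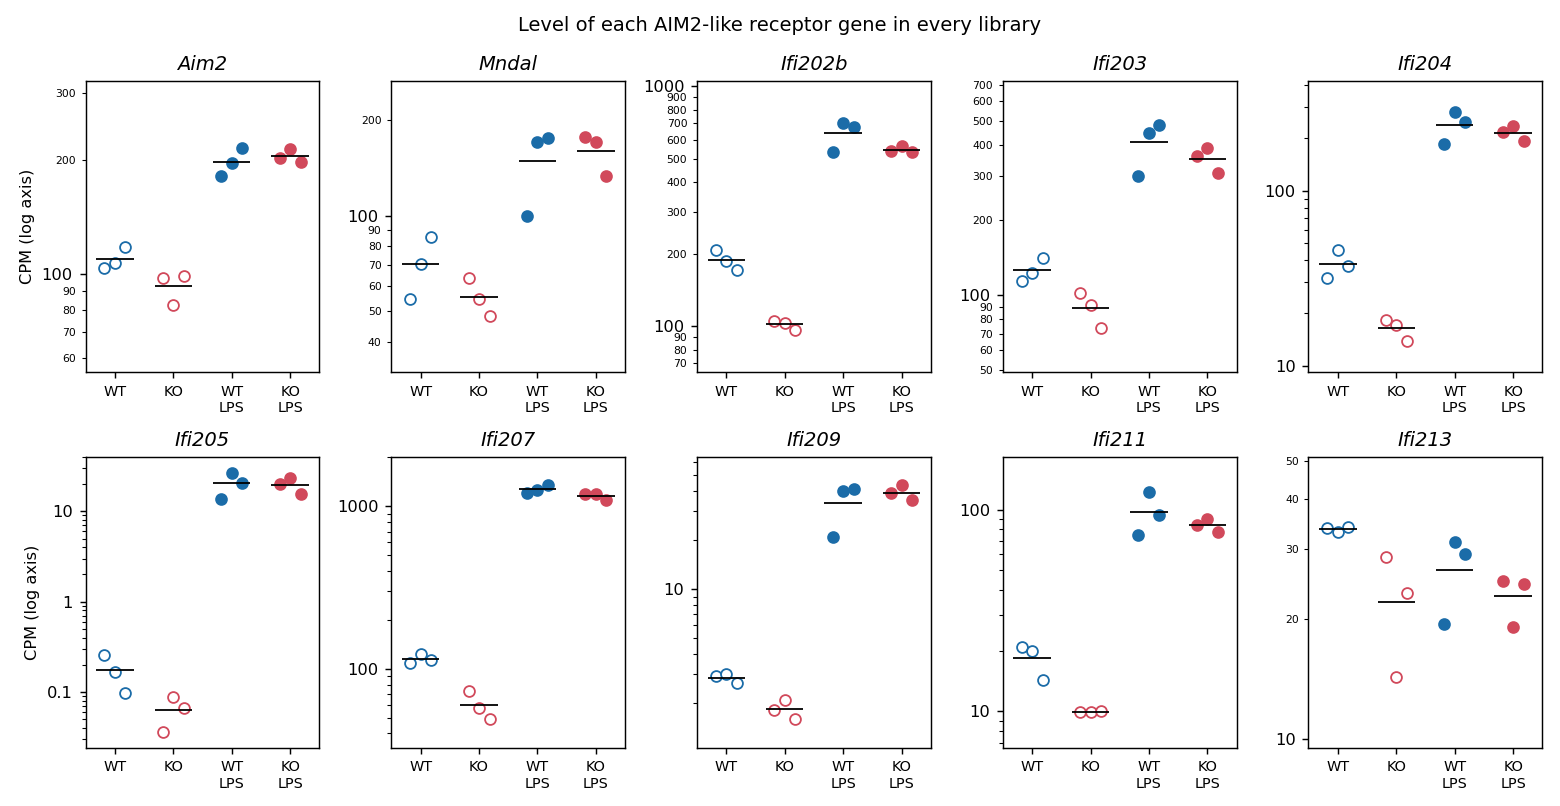
CPM of each member in all 12 libraries on a log axis, with a panel per gene, open circles for unstimulated and filled circles for LPS libraries, blue for WT and red for ACAT1 KO, and a black line at the group mean. In unstimulated cells the 3 ACAT1 KO circles lie below the 3 WT circles for every member but Mndal, and after LPS the genotypes overlap in 9 panels, with the ACAT1 KO circles of Ifi207 just below the WT ones.

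In unstimulated cells 4 of the 10 members were lower in ACAT1 KO than in WT cells. Every one of the 10 log2 fold changes was negative, as were 49.3% of all, and they ran from -1.43 for Ifi205 to -0.23 for Aim2, with a median of -0.76 against 0.00 over the 16440 genes tested. Ifi202b, Ifi204, Ifi207 and Ifi211 passed an adjusted p under 0.05 (edgeR's quasi-likelihood F test, adjusted by Benjamini-Hochberg), which is 4 of 10 members called lower against 1.17% of all genes tested. None was called higher, against 0.742% of all genes. At an unadjusted p under 0.05 in edgeR, 9 members were lower, against 9.93% of all genes. In 9 of the 10, Mndal being the exception, all ACAT1 KO libraries lay below all WT libraries, as did 12.7% of all genes.

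Ifi202b, the member without a pyrin domain that can block AIM2, showed the clearest separation. It had 207.5, 186.2 and 172.2 CPM in WT replicates 1, 2 and 3 and 105.2, 103.5 and 96.7 CPM in ACAT1 KO replicates 1, 2 and 3. The ACAT1 KO lines lay close together, and even the lowest WT line was well above them. Its level in ACAT1 KO cells was 1.84-fold lower, or -0.88 in log2 units (standard error 0.0830, 95% interval -1.08 to -0.68, edgeR adjusted p = 0.014). Ifi204, which encodes the DNA-binding protein p204, had 31.8, 45.9 and 37.3 CPM in the WT lines and 18.3, 17.1 and 13.8 CPM in the ACAT1 KO lines, in the same replicate order. It was 2.32-fold lower, or -1.22 in log2 units (standard error 0.160, 95% interval -1.59 to -0.84, edgeR adjusted p = 0.032).

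Ifi207, a member with pyrin and HIN domains, had 108.7, 123.9 and 112.7 CPM in WT and 73.5, 57.5 and 49.0 CPM in ACAT1 KO replicates 1, 2 and 3. The groups were apart by more than the spread within either, and the difference was -0.93 in log2 units (standard error 0.144, 95% interval -1.27 to -0.59, edgeR adjusted p = 0.0401). Ifi211 had 20.9, 20.0 and 14.3 CPM in WT and 9.90, 9.96 and 10.0 CPM in ACAT1 KO replicates 1, 2 and 3. Here the ACAT1 KO lines hardly differed and WT replicate 3 was the nearest to them, and the difference was -0.88 in log2 units (standard error 0.146, 95% interval -1.22 to -0.53, edgeR adjusted p = 0.0442). Its transcripts are also the ones most shared with other family genes, as given above.

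Aim2 itself had 103.8, 106.8 and 117.5 CPM in WT and 97.1, 82.5 and 98.6 CPM in ACAT1 KO replicates 1, 2 and 3. The groups were separate but close, and the log2 fold change of -0.23 (95% interval -0.44 to -0.02) did not pass (edgeR adjusted p = 0.215). Ifi205 had the most negative log2 fold change, -1.43 (95% interval -2.65 to -0.21, edgeR adjusted p = 0.192), from 18, 11 and 12 counts in WT and 5, 8 and 8 counts in ACAT1 KO libraries, so that its interval was the widest. Ifi209 (log2 fold change -0.64, edgeR adjusted p = 0.107), Ifi213 (-0.60, edgeR adjusted p = 0.205), Ifi203 (-0.49, edgeR adjusted p = 0.113) and Mndal (-0.34, edgeR adjusted p = 0.343) did not pass either. Mndal ranged from 54.7 to 85.6 CPM in WT and from 48.2 to 63.5 CPM in ACAT1 KO lines, and these ranges overlap.

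The number of calls changed when a single line was left out, over all genes as well as among the members. Without WT replicate 2 or without ACAT1 KO replicate 3, 0 of the 10 passed. Of all genes, 7 of 16928 and 8 of 16454 were called lower in those fits. Only Ifi202b passed without WT replicate 1 (17 of 16962 genes called lower) or without ACAT1 KO replicate 2 (29 of 16946). Only Ifi207 passed without ACAT1 KO replicate 1 (21 of 16461), and the same 4 passed without WT replicate 3 (278 of 16420). All 10 log2 fold changes stayed negative in these 6 fits. DESeq2 called 7 members lower, where it called 6.55% of all genes lower. In the class formed by ACAT1 KO replicate 2 and WT replicates 1 and 2, the difference in log2 CPM was -0.91 for Ifi202b, -1.14 for Ifi204, -0.99 for Ifi207 and -1.02 for Ifi211, and within the other 3 libraries it was -0.77, -1.23, -0.91 and -0.52, with a single line of 1 genotype in each class. The summed level of the 10 macrophage markers also moved with the genotype, from 11037.9 to 11456.9 CPM of the deposited total in WT and from 11947.7 to 13263.8 in ACAT1 KO libraries, higher where the receptors were lower, and its part in the result was not tested. In RNA from whole cultures, fewer cells that express a gene and less RNA per cell cannot be told apart, and the 3 libraries per genotype are separate clonal lines, so that the spread includes differences between clones.

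**Figure D3:**
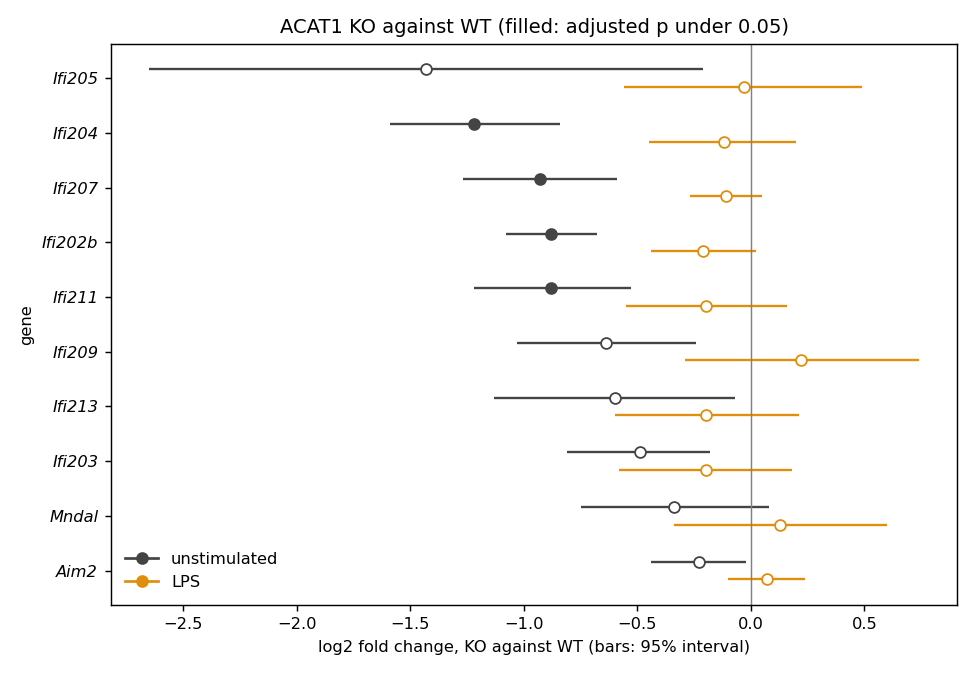
Log2 fold change of ACAT1 KO against WT cells for each member, in grey without stimulation and in orange after LPS, with 95% intervals and filled circles where the edgeR adjusted p is under 0.05. All 10 grey points lie left of 0, from -1.43 to -0.23, and the orange points lie between -0.21 and 0.22 with every interval crossing 0.

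After LPS no difference between genotypes was called. The log2 fold changes of the 10 members lay between -0.21 for Ifi202b and 0.22 for Ifi209, with a median of -0.12 against -0.00 over the 16483 genes tested. None passed an adjusted p under 0.05 and none an unadjusted p under 0.05 in edgeR, against 9.12% of all genes called lower and 5.93% called higher by adjusted p, and DESeq2 called 0 as well, against 11.6% of all genes lower and 8.65% higher. An unadjusted p under 0.05 was reached by 31.3% of all genes. With CPM normalised over the 6 LPS libraries the groups overlapped for all 10, for Ifi207 only just (lowest WT library 1079.6 and highest ACAT1 KO library 1081.2 CPM), whereas 19.7% of all genes had all ACAT1 KO libraries below and 17.9% above all WT libraries. On the scale of all 12 libraries used for the printed levels, 9 overlapped and Ifi207 did not, with 1211.3 CPM in its lowest WT and 1199.1 CPM in its highest ACAT1 KO library. Ifi202b had 534.3, 701.0 and 676.4 CPM in WT and 536.8, 565.3 and 531.7 CPM in ACAT1 KO replicates 1, 2 and 3 (95% interval of the log2 fold change -0.44 to 0.02, edgeR adjusted p = 0.204). WT replicate 1 was the lowest WT line for all 10 members, and ACAT1 KO replicate 3 the lowest ACAT1 KO line for 9 of them. Leaving out WT replicate 1 made Ifi202b (log2 fold change -0.32, edgeR adjusted p = 0.0141) and Ifi203 (-0.38, edgeR adjusted p = 0.0375) pass as lower in ACAT1 KO cells. In that fit 1404 of 16817 genes were called lower. After LPS the summed macrophage markers were at 9001.0 to 9542.0 CPM of the deposited total in WT and 9599.4 to 10658.3 in ACAT1 KO libraries. The fibroblast markers with a row (Col1a1, Dcn and Pdgfra, 3 of 4, without Col1a2) were at 4.95 to 5.98 in WT and 10.3 to 12.2 in ACAT1 KO libraries on the same scale. The part of either list in the comparison was not tested.

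The intervals show what the data could have resolved. For Aim2 the log2 difference after LPS was 0.07 with a 95% interval from -0.10 to 0.24, and for Ifi207 it was -0.11 with an interval from -0.27 to 0.05. Ifi204 stood at -0.12 (-0.45 to 0.20), Ifi203 at -0.20 (-0.58 to 0.18), Ifi211 at -0.20 (-0.55 to 0.16) and Ifi213 at -0.20 (-0.60 to 0.21). The widest intervals belonged to Ifi205 at -0.03 (-0.56 to 0.49), Ifi209 at 0.22 (-0.29 to 0.74) and Mndal at 0.13 (-0.34 to 0.60). A difference as large as the unstimulated one of Ifi204, -1.22, lies outside its interval after LPS. The same holds for Aim2, Ifi202b, Ifi205, Ifi207, Ifi209 and Ifi211. The unstimulated -0.49 of Ifi203 lies inside its interval after LPS, and those of Ifi213 (-0.60) and Mndal (-0.34) lie at the edge of theirs.

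LPS raised 9 of the 10 members in WT cells, against 29.3% of all 16535 genes tested that were called higher. The members had a median log2 fold change of 2.08 against -0.02 over all genes. The exception was Ifi213. The same 9 members were called higher in ACAT1 KO cells, against 29.5% of all genes, with a median of 2.74 against -0.03. For each of these 9 all LPS libraries lay above all unstimulated libraries of the same genotype, as they did for 31.4% of all genes in WT and 33.2% in ACAT1 KO cells. Both states were deposited in separate tables, and where the labels do not say whether their libraries were prepared together, treatment and preparation cannot be told apart.

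Ifi205, reported to regulate the expression of the inflammasome adaptor ASC, rose most. From 0.255, 0.168 and 0.0971 CPM in unstimulated WT replicates 1, 2 and 3 it went to 13.8, 26.8 and 20.6 CPM after LPS, and from 0.0362, 0.0870 and 0.0661 to 20.3, 23.2 and 15.6 CPM in ACAT1 KO cells. This is a gene close to silent at rest in these cells and readily counted 2 hr after LPS. The log2 fold change was 6.96 in WT (standard error 0.366) and 8.33 in ACAT1 KO cells (standard error 0.399).

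Ifi207 changed by 3.47 in WT (standard error 0.132) and 4.28 in ACAT1 KO cells (standard error 0.138) on the log2 scale. Its LPS levels of 1211, 1265 and 1348 CPM in WT and 1199, 1198 and 1096 CPM in ACAT1 KO replicates 1, 2 and 3 were narrow within each genotype. Ifi209 rose by 3.57 (standard error 0.228) and 4.42 (standard error 0.236) on the same scale, from 2.87 ± 0.176 to 33.9 ± 11.2 CPM in WT and from 1.83 ± 0.244 to 39.1 ± 3.93 CPM in ACAT1 KO cells (SD, n = 3). Its WT replicate 1, at 21.0 CPM after LPS, lay far below WT replicates 2 and 3 at 39.7 and 41.0 CPM.

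Ifi204, the gene of p204, rose by 2.63 in WT and 3.71 in ACAT1 KO cells on the log2 scale, and its LPS levels were 185.1, 282.3 and 245.4 CPM in WT and 216.8, 234.2 and 193.6 CPM in ACAT1 KO replicates 1, 2 and 3. Ifi211 rose by 2.40 and 3.07, Ifi202b by 1.76 and 2.42, Ifi203 by 1.71 and 1.99 and Mndal by 1.08 and 1.54, in WT and ACAT1 KO cells respectively. Aim2, the inflammasome receptor, rose least of the 9. It went from 109.4 ± 7.24 to 197.3 ± 16.8 CPM in WT (1.80-fold, standard error of the log2 fold change 0.0856) and from 92.7 ± 8.90 to 204.3 ± 8.63 CPM in ACAT1 KO cells (2.20-fold, standard error 0.0860, SD of the levels with n = 3). The least significant of these 18 tests was Mndal in WT cells (edgeR adjusted p = 0.00107).

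Ifi213 was the member not called in either genotype. It had 33.9, 33.1 and 34.1 CPM in unstimulated WT and 19.5, 31.2 and 29.1 CPM in WT cells after LPS, replicates 1, 2 and 3. All 3 LPS libraries were thus below all 3 unstimulated ones, as for 29.6% of all genes, by a log2 fold change of -0.34 that did not pass (95% interval -0.83 to 0.15, edgeR adjusted p = 0.217). In ACAT1 KO cells the ranges overlapped, 14.3 to 28.6 CPM without and 19.1 to 25.0 CPM with LPS, with a log2 fold change of 0.05 (95% interval -0.44 to 0.54, edgeR adjusted p = 0.854). Upper-quartile normalization, which moved the median of all genes to -0.23 in WT and -0.17 in ACAT1 KO cells, gave -0.55 for Ifi213 in WT (edgeR adjusted p = 0.0457) and -0.09 in ACAT1 KO cells.

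**Figure D4:**
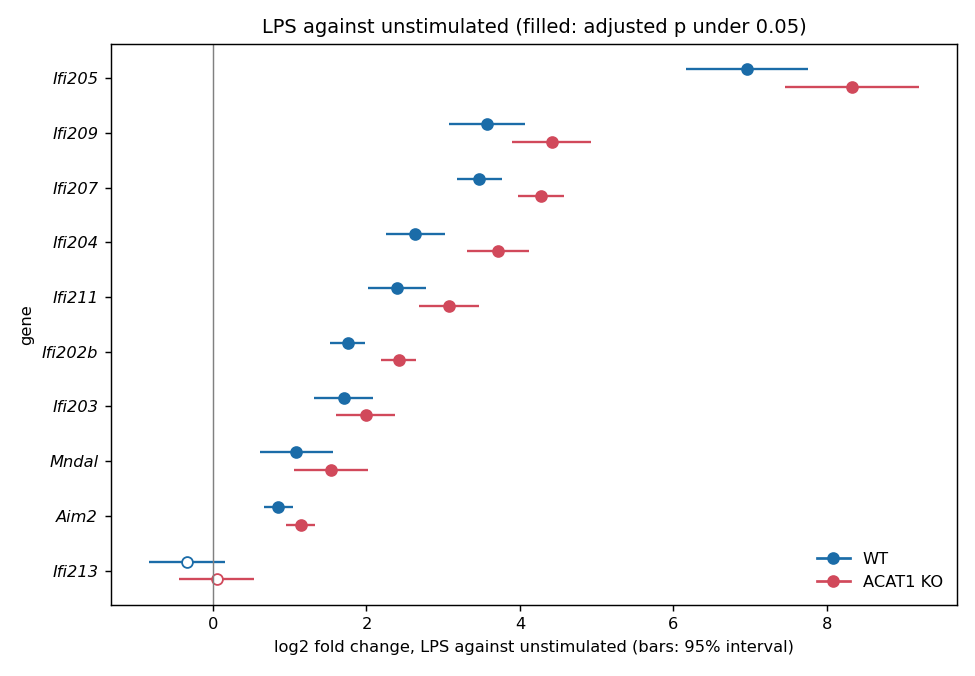
Log2 fold change of LPS against unstimulated cells for each member, blue for WT and red for ACAT1 KO, with 95% intervals and filled circles where the edgeR adjusted p is under 0.05. Ifi205 stands apart at 6.96 and 8.33, Ifi213 lies nearest to 0, at -0.34 and 0.05, and the red point is to the right of the blue one for all 10 members.

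The fitted response to LPS was larger in ACAT1 KO than in WT cells for each of the 10 members, but none of the differences passed in the fit of all 4 groups. The difference of log2 fold changes, the interaction of genotype and LPS, ranged from 0.28 for Ifi203 to 1.36 for Ifi205 and had a median of 0.66 against -0.04 over all genes, of which 41.4% were above 0. It shares its libraries with the comparisons above and is no separate evidence. With the 4 groups in a single fit, 0 of the 10 passed an adjusted p under 0.05 in edgeR, against 0.0484% of all genes called higher. At an unadjusted p under 0.05 there were 7, against 3.28% of all genes. The largest interactions were those of Ifi205 at 1.36 (standard error 0.596, 95% interval 0.06 to 2.67, edgeR adjusted p = 0.518) and Ifi204 at 1.08 (standard error 0.237, 95% interval 0.56 to 1.60, edgeR adjusted p = 0.107).

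Unstimulated and LPS libraries with the same replicate number deviated together from their group means and were taken as the same line. With the line as a block the interaction of Ifi204 was 1.09 (edgeR adjusted p = 0.003) and that of Ifi207 0.83 (edgeR adjusted p = 0.0188), and both passed, against 0.835% of all genes called higher in that fit. Ifi202b at 0.67 (edgeR adjusted p = 0.0764) and Mndal at 0.47 (edgeR adjusted p = 0.0796) missed the threshold. DESeq2 without the block called Ifi202b, Ifi204 and Ifi207, against 1.16% of all genes. Without unstimulated ACAT1 KO replicate 1, Ifi207 passed in the fit without the block (0.98, edgeR adjusted p = 0.0206), where 3 of 16606 genes were called higher.

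Summed over the family, the counts give a total that does not depend on how reads were split among the members. The total was 678.4, 712.7 and 716.9 CPM in unstimulated WT replicates 1, 2 and 3 and 499.9, 432.5 and 415.0 CPM in unstimulated ACAT1 KO replicates 1, 2 and 3. After LPS it was 2642, 3282 and 3328 CPM in WT and 2861, 2946 and 2613 CPM in ACAT1 KO replicates 1, 2 and 3. The totals of the genotypes were apart without stimulation, with a ratio of means of 0.639, and overlapped after LPS, with a ratio of 0.91. LPS multiplied the mean total by 4.39 in WT and 6.25 in ACAT1 KO cells. Ifi207 supplied 11.8% to 17.4% of the family's counts at rest and 38.6% to 45.8% after LPS, while Aim2 went from 15.0% to 23.8% down to 5.96% to 7.53%, as shares of counts that also depend on transcript length.

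**Figure D5:**
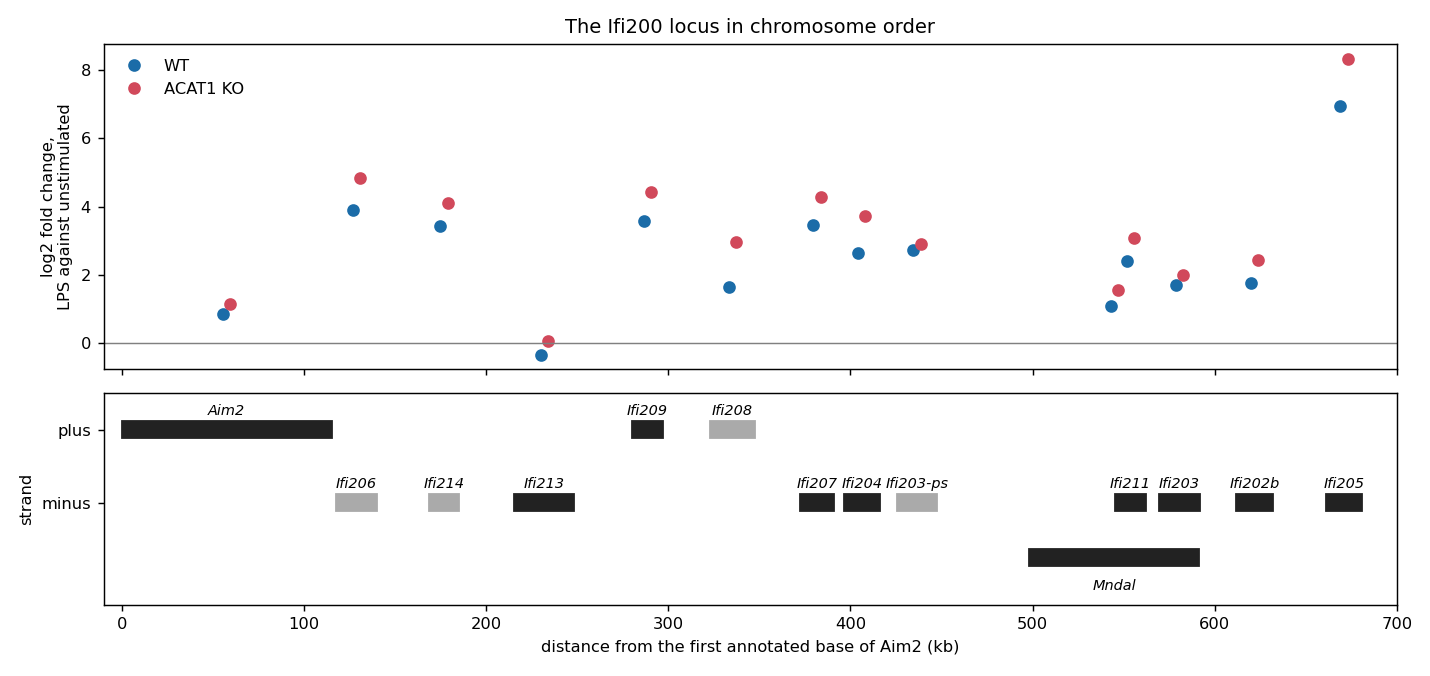
Upper panel, log2 fold change of LPS against unstimulated cells for 14 genes of the locus, blue for WT and red for ACAT1 KO, beside the middle of each gene, with the genotypes set slightly apart. The lower panel draws the genes to scale by strand, members in black and neighbours in grey and Mndal on a line of its own below the minus strand because it overlaps Ifi211 and Ifi203, against the distance in kb from the first annotated base of Aim2. Aim2 at one end has the smallest rise among the genes that rose and Ifi205 at the other end the largest.

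The neighbouring family genes were lowly expressed. Ifi206, Ifi208, Ifi214 and the pseudogene Ifi203-ps had mean levels of 0.0871, 0.724, 0.160 and 2.31 CPM in unstimulated WT cells. LPS raised all 4 in both genotypes, with log2 fold changes of 3.89, 1.63, 3.44 and 2.74 in WT and 4.85, 2.95, 4.09 and 2.91 in ACAT1 KO cells, and the highest edgeR adjusted p was 0.00658, for Ifi208 in WT cells. None of the 3 that could be tested in unstimulated cells passed between genotypes. Ifi208 was at -1.51 (95% interval -2.59 to -0.43, edgeR adjusted p = 0.14), Ifi203-ps at -0.47 (-0.97 to 0.02) and Ifi214 at -0.28 (-1.35 to 0.78), so that differences are not excluded. Gm18445, a pseudogene between Ifi202b and Ifi205, was lower in unstimulated ACAT1 KO cells (log2 fold change -1.13, edgeR adjusted p = 0.0455) and rose with LPS by 2.42 in WT and 3.24 in ACAT1 KO cells. Its transcript shares windows of 100 bases with Ifi207, so that reads of Ifi207 may be counted for it, which was not tested. Gm7871, a pseudogene beside Ifi207, showed 0.25 between the genotypes without stimulation (edgeR adjusted p = 0.775) and rose by 1.01 and 1.36 with LPS in WT and ACAT1 KO cells. Beyond Ifi205, the olfactory receptor genes Olfr433 (0.66, edgeR adjusted p = 0.104) and Olfr432 (0.02, edgeR adjusted p = 0.97) were listed only after LPS, and neither was called between genotypes.

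The genes whose pattern over the 12 libraries was most like the mean pattern of the members were sought by the root mean square difference of centred log2 CPM. The nearest 5 that are no member were Zcchc2 at 0.153, Trim25 at 0.158, Rnf213 at 0.172, Tlr3 at 0.180 and Gm18445 at 0.191, against a median of 1.42 over 16535 genes. Trim25 encodes a ubiquitin ligase of the RIG-I pathway and Tlr3 the endosomal receptor for double-stranded RNA. Of the members, Ifi211 lay closest to the family mean at 0.139, and Ifi205 at 2.35, Ifi213 at 1.45 and Aim2 at 0.890 lay farthest from it.

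Genes of the partners through which AIM2 acts did not share 1 direction. Of the 15 genes of the inflammasome and pyroptosis list, 14 were tested in unstimulated cells and 0 passed between genotypes in edgeR (4 at an unadjusted p under 0.05), with a median of -0.01. Over all genes 1.91% passed there and 19.7% reached an unadjusted p under 0.05. Il18, a cytokine that caspase-1 matures, had the smallest p there (log2 fold change -0.63, edgeR adjusted p = 0.0698). After LPS 3 of 15 were higher in ACAT1 KO cells, Il1b at 1.46, Il1a at 1.26 and the inflammasome receptor Nlrc4 at 0.70, against 5.93% of all genes. Another 3 were lower, Casp8 at -0.52, Il18 at -0.63 and Gsdmd, which encodes gasdermin D, at -0.23, against 9.12% of all genes. LPS raised 7 of 14 in WT and 8 of 14 in ACAT1 KO cells, among them Casp4, Il1a, Nlrp3 and Il1b in both, and lowered 3 and 4, where LPS lowered 28% of all genes in WT and 31.2% in ACAT1 KO cells and raised 29.3% and 29.5%. Pycard, which encodes ASC, was among those lowered, by a log2 fold change of -0.81 in WT and -0.86 in ACAT1 KO cells.

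Other genes of cytosolic DNA sensing were split as well. In unstimulated cells 2 of 14 tested were lower in ACAT1 KO cells, Tbk1, the kinase downstream of STING, at -0.35 (edgeR adjusted p = 0.0442) and the RNA-editing enzyme gene Adar at -0.53 (edgeR adjusted p = 0.0455), and 0 were higher. Of all genes 1.17% were called lower and 0.742% higher there. After LPS Dnase2a and Rnaseh2c, which encode nucleases, were each higher by 0.33 and Tbk1 was lower by a log2 fold change of -0.41. Of all genes 5.93% were called higher and 9.12% lower after LPS. LPS raised 6 of 14 in each genotype, Ikbke, Adar, Tbk1, Cgas, Samhd1 and Zbp1, and lowered 4 in WT and 6 in ACAT1 KO cells, Sting1 among them, against the same shares of all genes as for the inflammasome list. No gene of this list or of the inflammasome list passed for the interaction in edgeR, with 2 of 14 and 3 of 14 at an unadjusted p under 0.05. Over all genes 0.187% passed for the interaction and 8.92% reached an unadjusted p under 0.05.

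In the list of interferon receptor, ISGF3 and IRF genes, 2 of 14 were lower in unstimulated ACAT1 KO cells, Usp18, a negative regulator of interferon signaling, at -1.76 (edgeR adjusted p = 0.0215) and Stat2, a subunit of ISGF3, at -1.15 (edgeR adjusted p = 0.0344). Irf8 was higher, at 0.55 (edgeR adjusted p = 0.0175). Of all genes 1.17% were called lower and 0.742% higher in that comparison. The list had a median of -0.07 at rest. After LPS Ifnb1, which encodes IFN-β, was higher by 1.27 in ACAT1 KO cells (edgeR adjusted p = 0.0312), Irf8 and Ifnar1 were lower, and the other 12 of 15 did not pass. The shares of all genes were 5.93% called higher and 9.12% called lower. With LPS, 11 of 14 genes of the list rose in WT and 10 of 14 in ACAT1 KO cells, against 29.3% and 29.5% of all genes. The median log2 fold change of the list was 1.63 in WT and 1.79 in ACAT1 KO cells. Irf8 alone was called lower with LPS in each genotype, against 28% of all genes in WT and 31.2% in ACAT1 KO cells. Irf8 was also the single gene of the list with a called interaction, -1.22 (edgeR adjusted p = 0.0195). Its LPS response was -1.33 in WT and -2.55 in ACAT1 KO cells. Usp18 missed that threshold at 1.53 (edgeR adjusted p = 0.0533), with the same sign as the receptors.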

How the data were processed

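The labels of the 12 J774A.1 libraries gave genotype, treatment and replicate. Per the submitters' processing notes and methods, reads of a stranded kit (paired ends) were trimmed with Trimmomatic 0.33, aligned to GRCm38 with HISAT2 and quantified with StringTie. The deposited values are raw counts per gene as whole numbers, 1 table per state, and the step that gave whole counts, its handling of multi-mapped reads and its use of strand are not given in the sources used here. Also in the tables are 12 log2 columns by library and the authors' own fold changes and p-values, none of which was used.

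Repeated rows of a gene (59 and 57, with identical counts) were removed. The tables had been filtered: each gene in them reaches 4 counts in 5 or more of 6 libraries. Identifiers were matched to GENCODE M21 for 17521 and 17849 genes, and promoter sequences are from RefSeq (GRCm38.p6). Counts were analysed in R 4.3.3 with edgeR 4.0.16 (filterByExpr, TMM, quasi-likelihood F test, two-sided, Benjamini-Hochberg over all genes tested). Genotypes were compared within each state (16440 and 16483 genes), and LPS responses and the interaction in 1 fit of 4 groups over 16535 genes. Standard errors were derived from the F statistic. Alternatives were DESeq2 1.42.0, upper-quartile and relative log expression scaling, all genes unfiltered, all libraries or 1 genotype in a fit, a replicate block and each library left out.

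The fits were tested on simulated data. From 148 (genotypes, unstimulated) to 199 (genotypes, LPS) of 200 changed genes were called. Unchanged genes made up 0.556% (LPS response of WT) to 8.29% (genotypes, LPS) of the calls. Depth was 56948593 to 167280149 counts, so the spread between lines, which the labels do not describe further, limits precision. Unstimulated and LPS libraries of the same number were taken as 1 line: their deviations correlated from 0.413 to 0.622 in 6 pairs over 9646 genes, and the labels do not state the pairing. Pairs of libraries within a group differed by more than sampling noise.

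All 10 members were named whatever their values, with Acat1, at most 4 genes per list and comparison beside those counted as called, the family genes and listed genes within 500 kb, and the 5 genes of nearest pattern. Genes of a list outside its 4 smallest p-values, such as Pycard, Gsdmd, Zbp1 and Sting1, were named after their values were seen. The members and lists were chosen with earlier results of these data known. Protein sequences were not analysed here. A further motif and a further marker list that were examined are not reported here.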

Additional observations from a re-analysis of the deposited data

Results flagged for a closer look

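The response of Ifi204 to LPS differed between the genotypes when the line was a block, with an interaction of 1.09 on the log2 scale (edgeR adjusted p = 0.003), larger in ACAT1 KO cells. Ifi207 differed in the same way, by 0.83 (edgeR adjusted p = 0.0188). Both were picked out because this test of the difference itself passed, and both missed the threshold without the block (edgeR adjusted p = 0.107 and 0.0948). The classes of opposite-strand counts were not balanced between unstimulated and LPS libraries, and their part in these calls was not tested. Groups of 3 libraries were too small to look for single outlying libraries.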

How the results depend on the processing

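Of 780 refits of single members, 738 kept their direction and side of the threshold, 19 lost a call, 13 gained one and 10 changed sign. For unstimulated genotypes 4 members were called, and 7 by DESeq2, 2 with the replicate number as a block (Ifi202b and Ifi204, with 0.718% of all genes called lower), and 0 to 4 with a library left out. WT and ACAT1 KO libraries share only a number: same-numbered deviations correlated from -0.0919 to 0.44. In those fits with a library left out, 7 to 29 genes of the table were called lower, except without WT replicate 3, which called 278. A term for the class of opposite-strand counts, chosen after seeing the data, called 5, Aim2 in addition, with 376 of 16440 genes called lower. After LPS 0 were called, and 0 to 2 with a library left out. The 2 were called without WT replicate 1, where 1404 of 16817 genes were called lower. For the interaction, called in 0, the counts were 3 by DESeq2, 2 with the replicate block and 0 to 1 with a library left out. The replicate block changed no other call.

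With a library left out, log2 fold changes of ACAT1 KO against WT after LPS changed sign for Mndal (-0.09 to 0.28), Ifi204 (-0.28 to 0.02), Ifi205 (-0.25 to 0.21), Ifi209 (-0.03 to 0.39) and Ifi211 (-0.35 to 0.000866), and the LPS response of Ifi213 in ACAT1 KO cells did so (-0.18 to 0.28, and -0.09 with upper-quartile normalization). Upper-quartile normalization also turned the split of LPS calls over all genes from 4850 higher and 4638 lower to 3628 and 6681 in WT, and from 4871 and 5166 to 3921 and 6560 in ACAT1 KO cells. The log2 ratio of family totals for LPS, 2.13 in WT and 2.64 in ACAT1 KO cells, was 1.62 and 2.08 without Ifi207, and 1.82 and 2.34 as CPM of the deposited total. The cause of these shifts was not tested beyond what each setting leaves out.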
